A study of Mus musculus with 3 samples.

Results

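The Ccl5-high cells are thymocytes that hold transcripts of the T cell receptor α constant gene Trac, of natural killer (NK) receptors and of the chemokine gene Ccl5. They were chosen by their raw counts in the second and the third 10x run, after cells with under 500 or over 5000 detected genes, or with over 7% of their counts from mitochondrial genes, had been left out. A base gate took the cells with 1 or more unique molecular identifiers (UMIs) of Trac, 2 or more summed over Klrk1, Klrd1 and Klrb1c, and 2 or fewer summed over the interferon response genes Ifit1, Ifit3 and Isg15. Of the 2693 base-gate cells, 637 had 3 or more Ccl5 UMIs, 442 of 1822 in the second run and 195 of 871 in the third. The other 2056, with 2 or fewer, are called Ccl5-low cells and served as the comparison within each run. The whole series held 23283 cells, of which 21879 passed the limits on genes and mitochondrial counts.

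All mice were untreated C57BL/6 animals, given as 6 weeks old in 1 label and as 6 to 8 weeks old in another, and 4 thymi were pooled for each run. The second run was a sort of CD44+ double-negative (DN) thymocytes, DN1 and DN2, without TCRγδ+ cells. In the third run, DN1 with DN2, DN3 and TCRγδ+ cells were sorted apart and then combined, and the first run took total DN with TCRγδ+ cells. The DN gates left out cells with surface CD4, CD8, B220, CD11b, CD11c, NK1.1 or TCRβ, whereas the cells described here were chosen by RNA, including that of Klrb1c, which encodes NK1.1. Each sort was made once and gave 1 library, so that the 2 runs are not replicates, and p-values hold for these 2 libraries only. The second and the third run shared 0 cell barcodes. Median depth was 2868 UMIs per Ccl5-high cell and 2766 per Ccl5-low cell in the second run, and 5852 and 6112, respectively, in the third, and the Ccl5-high cells summed to 1632311 and 1380233 UMIs.

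Ccl5 is a secreted chemokine that attracts T cells, NK cells and myeloid cells. NK cells, memory CD8 T cells and innate-like T cells that have turned to a type 1 program transcribe it, and cytotoxic lymphocytes store it together with granule proteins. Klrk1 (NKG2D), Klrd1 (CD94) and Klrb1c are lectin-like receptors that NK cells share with innate-like T cells such as NKT cells. Some of these T cells stay in the thymus for long, held by adhesion molecules, while cells that leave the thymus usually turn on Klf2 and its target S1pr1.

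Ccl5 UMIs in the base gate ran from 0 to a long tail, with no gap at the threshold. The Ccl5-high cells made up 24.3% of the base gate in the second run (95% Clopper-Pearson interval 22.3 to 26.3) and 22.4% in the third (19.7 to 25.3), or 4.99% and 2.596% of all cells within the limits. Intervals here and below cover counting error only. A Ccl5-high cell held a median of 12 Ccl5 UMIs in the second run (quartiles 6 and 23, highest 77) and of 13 in the third (5 and 28, highest 153). Just inside the threshold, 49 and 20 cells had 3 Ccl5 UMIs, and just outside it, 56 and 24 had 2. The cells with 3 UMIs had a summed Gzma level of 412 and 821 CPM in the second and the third run (CPM, counts scaled to 1000000 per sum), and those with 2 had 221 and 239 CPM. The 637 cells held 73.6% of the Ccl5 UMIs of all cells within the limits in the second run and 47.0% in the third. A further 136 and 178 cells reached 3 Ccl5 UMIs outside the base gate, of which 82 and 117 had no Trac UMI, 70 and 57 had fewer than 2 UMIs of the receptors, and 22 and 64 were over the interferon limit.

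**Figure D1:**
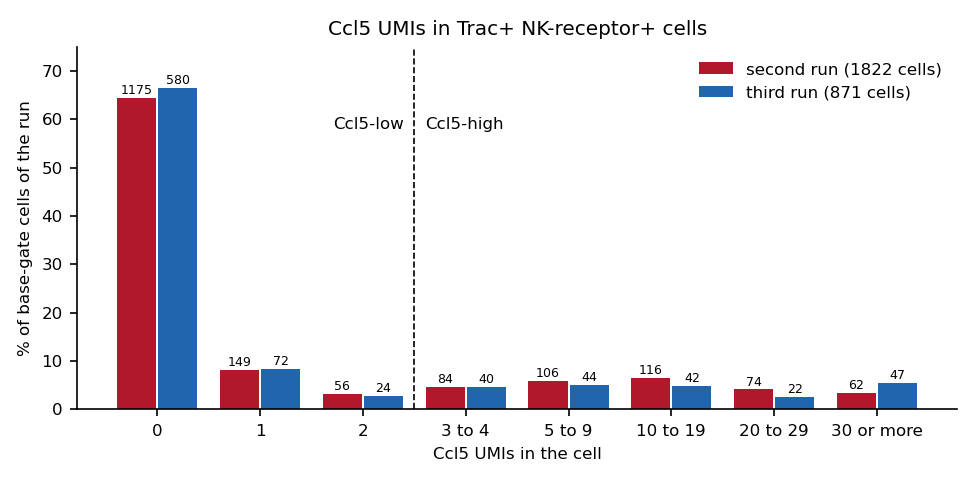
Number of Ccl5 UMIs per cell (x axis) against the share of base-gate cells (y axis, percent) in the second run (red) and the third run (blue), with the number of cells above each bar. Most cells had 0 Ccl5 UMIs (64.5% and 66.6%), and the dashed line marks the threshold of 3 UMIs.

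Ccl5 was also counted in cells that should lack it. Cells with Ptcra and Rag1 UMIs (Ptcra+ Rag1+ cells), 2 genes of T lineage commitment, were deeper than base-gate cells (medians of 6019 and 7981 against 2788 and 6071 UMIs), and 1 or more Ccl5 UMIs were found in 6.70% of them in the second run and 3.48% in the third, and 3 or more in 1.72% (0.827 to 3.14) and 0.656% (0.315 to 1.20). Whether these UMIs come from free RNA, from doublets or from the cells themselves was not tested. In cells with 2 or more UMIs of the B cell gene Cd79a, such counts were found in 0 of 20 and in 4 of 413 cells (0.968%, 0.264 to 2.46).

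Of the 4 genes that name the cells, Ccl5, Klrk1 and Trac were part of the rule, and their levels are given without a test. Klrk1 was at 757 CPM in Ccl5-high and 559 CPM in Ccl5-low cells of the second run, and at 497 and 332 CPM in the third. Trac was at 1016 against 1434 CPM in the second run and 483 against 639 CPM in the third, so that Ccl5-high cells lay below Ccl5-low cells in both. Klrd1 differed little (961 and 977 CPM, then 408 and 402 CPM), and Klrb1c was at 331 against 417 CPM and at 261 against 287 CPM. All 3 receptors of the gate were found together in 45.0% of Ccl5-high cells in the second run (40.3 to 49.8) and 56.9% in the third (49.7 to 64.0), and in 34.5% and 37.3% of Ccl5-low cells.

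Itga1, the integrin subunit CD49a of tissue-resident lymphocytes, marked most of the cells in 1 run only. It was found in 6.11% of Ccl5-high cells in the second run (4.06 to 8.76) and 66.2% in the third (59.0 to 72.8), and after each cell was thinned to 2000 UMIs in 4.07% and 37.4%. In Ptcra+ Rag1+ cells the shares were 0% and 1.05%. The gene lists used for counting differed between the runs, with 28692 genes in the second and 32285 in the third, and whether this sets the Itga1 level was not tested. Within each run, Ccl5-high cells were above Ccl5-low cells, with 17.8 against 12.3 CPM in the second run and 200.0 against 101 CPM in the other, and the fitted log2 fold change was 0.92 ± 0.129 (SE, edgeR adjusted p = 1.51e-10). DESeq2 gave an adjusted p of 0.108 for Itga1.

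The Ccl5-high cells had transcripts of the CD3 chains and of the T cell receptor β constant region, and few UMIs of the coreceptors. Whether the receptor chains were rearranged was not measured. Cd3g was found in 98.6% and 97.9% of them, Trbc2 in 95.02% and 98.97%, and Cd3e in 88.9% (85.6 to 91.7) and 91.3% (86.4 to 94.8). Cd3e was missing more often than in Ccl5-low cells, where it was found in 94.1% and 96.9%, but its summed level did not pass the test (log2 fold change -0.21, adjusted p = 0.0791). Cd8a and Cd4 were each seen in 0 of 442 Ccl5-high cells of the second run, with an exact Clopper-Pearson upper bound of 0.831% that limits cells with a UMI, not cells expressing the gene, and in 3 and 1 of 195 cells of the third. The DN gates left out cells with surface CD4 or CD8, so these low counts cannot be read as a trait of the cells. Tbx21, the type 1 lineage factor T-bet, was at 59.4 CPM in Ccl5-high and 60.1 CPM in Ccl5-low cells of the second run and at 63.8 and 47.0 CPM in the third (adjusted p = 0.586). Il2rb, the receptor chain that reads IL-15, was at 323 and 372 CPM and at 403 and 331 CPM (adjusted p = 0.879). Of the 7 type 1 innate-like T cell markers that were tested, Itga1 and Nkg7 were higher and 5 did not pass, with a median log2 fold change of 0.06.

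To find which other genes differed, counts were summed over the Ccl5-high and over the Ccl5-low cells of each run, and the 4 sums were compared by edgeR with the run as a block and Benjamini-Hochberg adjustment over all genes. The 8 genes of the gate were left out of the test. Of 9690 genes, 209 were higher in Ccl5-high cells (2.16%) and 196 were lower (2.02%) at an adjusted p under 0.05 (405 in all). The counts of called genes in the lists below are to be read against these shares. With 4 sums and 1 residual degree of freedom, errors and p-values rest on the trend over all genes and not on the spread of each gene between the runs. DESeq2 called 43 higher and 23 lower, all among the 405, and without the run block edgeR called 0 in either direction (103 genes at an unadjusted p under 0.05). All cells were chosen by Ccl5 in the same libraries, so the calls list genes that differ along with Ccl5 and are not an independent test of the choice.

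**Figure D2:**
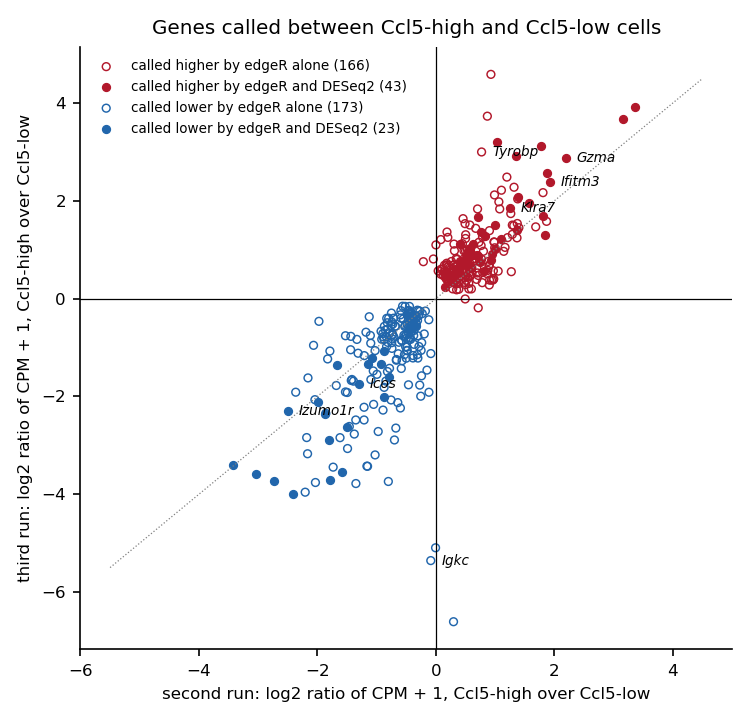
Log2 ratio of CPM + 1 in Ccl5-high over Ccl5-low cells in the second run (x axis) and the third run (y axis) for the 405 genes called higher (red) or lower (blue), with filled points for those that DESeq2 also called. Nearly all points lie in the upper right or lower left, which the choice of called genes favors, the dotted line marks equal ratios, and Igkc is among the points that lie far below 0 in the third run but not in the second.

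A cytotoxic granule gene led the protein-coding genes of 50 CPM or more that were higher. Gzma, which encodes the granule protease granzyme A (chr13:113093825-113100981, mm10, minus strand), was at 910.4 CPM in Ccl5-high cells of the second run (864.7 to 957.9) and 1403 CPM in the third (1342 to 1467). The Ccl5-low cells were at 197 and 189.6 CPM, outside these intervals. The fitted log2 fold change was 2.57 ± 0.0779 (SE, edgeR adjusted p = 3.91e-222, DESeq2 adjusted p = 4.39e-13). Gzma was called under 17 of 18 alternatives, with an adjusted p from 2.65e-296 upward, not passing without the run block, and Gm4208, Ifitm3, Fcer1g, Klf2, S100a6, Ifng, Icos and Izumo1r were called under 17 of 18 as well. Gzma was found in 45.5% (40.8 to 50.2) and 55.4% (48.1 to 62.5) of Ccl5-high cells and in 17.7% and 26.3% of Ccl5-low cells. Ptcra+ Rag1+ cells are not without Gzma, since 59.1% and 63.6% of them had a UMI of it. Of 15 granule and killing genes tested, 5 were higher (Gzma, Nkg7, Prf1, Serpinb6b, Serpinb9) and 1 was lower (Gzmc), with a median log2 fold change of 0.16 against -0.01 over all genes, and DESeq2 called Gzma, Nkg7 and Serpinb9 of the 6. Nkg7, a granule membrane protein, was at 1880 against 1670 CPM and 1635 against 1135 CPM. Prf1, which encodes the pore-forming perforin, was at 97.8 against 43.4 CPM in the third run and at 3.06 against 1.46 CPM in the second. Serpinb9, an inhibitor that shields the cell from granzyme B, was at 57.6 against 37.0 CPM and 136 against 62.4 CPM. Granzyme B itself was not among them, since Gzmb was at 563 against 542 CPM and 428 against 335 CPM (log2 fold change 0.21, adjusted p = 0.104). Gzmc rests on few cells, with 71.4% of its Ccl5-low UMIs of the third run in 1 cell.

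Of the 14 gene lists, that of NK receptors and adaptors outside the gate held the most genes called higher by count, though it was among the longest. Of 15 S100, annexin and galectin genes, 9 were higher, and over all genes 2.16% were higher and 2.02% were lower. Of 28 NK receptor and adaptor genes tested, 17 were higher and 4 were lower, with a median log2 fold change of 0.64. DESeq2 called 9 of the 17 and 0 of the 4. Among those higher were the inhibitory Ly49 receptors Klra5 (224 against 116 CPM and 261 against 137 CPM) and Klra7 (199 against 82.7 CPM and 151 against 40.8 CPM). Also higher were Klre1, a partner of other lectin-like receptors, at 285 against 143 CPM and 213 against 105 CPM, and Klrc1, the NKG2A chain that pairs with CD94, at 254 against 191 CPM and 170 against 77.5 CPM. Klra8, the activating receptor Ly49H, was at 23.9 against 8.73 CPM and 45.6 against 5.18 CPM, and Cd244a, a receptor for CD48, was at 44.7 against 12.1 CPM and 49.99 against 14.7 CPM. Klra3 went the other way (96.2 against 144 CPM and 104 against 189 CPM, log2 fold change -0.70, adjusted p = 1.81e-09), and so did Cd226, Sh2d1a and Sh2d2a. The Klra genes are close copies of each other, and reads may be split between them. Cd7 and Hcst, the adaptor of NKG2D, did not pass.

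Of the signaling adaptors of NK receptors, Fcer1g and Tyrobp were higher, Hcst did not pass, and Sh2d1a and Sh2d2a were lower. Fcer1g, the Fc receptor γ chain (chr1:171229572-171234365, minus strand), was at 495 CPM in Ccl5-high and 279 CPM in Ccl5-low cells of the second run, and at 601 and 248 CPM in the third. Its log2 fold change was 1.07 ± 0.0782 (adjusted p = 3.02e-39, DESeq2 1.45e-14). Its share of cells was 59.3% and 69.2% among Ccl5-high cells, 36.4% and 42.6% among Ccl5-low cells and 7.04% and 6.03% among Ptcra+ Rag1+ cells. Tyrobp, which encodes DAP12, was less even, at 58.2 against 33.7 CPM in the second run and 170 against 20.3 CPM in the third (log2 fold change 2.03, edgeR adjusted p = 6.05e-49). DESeq2 gave an adjusted p of 1 for Tyrobp, and its log2 fold change was 0.77 in the second run alone and 3 in the third alone. Without the cells that had a UMI of the NK markers Ncr1 or Eomes, that of Tyrobp was 1.12, while that of Fcer1g was 0.92 and that of Gzma 2.599. In second-run cells with 3 to 9 Ccl5 UMIs, Tyrobp was at 21.7 CPM, below the 33.7 CPM of Ccl5-low cells. It was at 67.5 CPM there with 10 to 29 Ccl5 UMIs and at 143 CPM with 30 or more. In the third run these classes were at 149, 98.9 and 293 CPM, against 20.3 CPM in Ccl5-low cells.

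**Figure D3:**
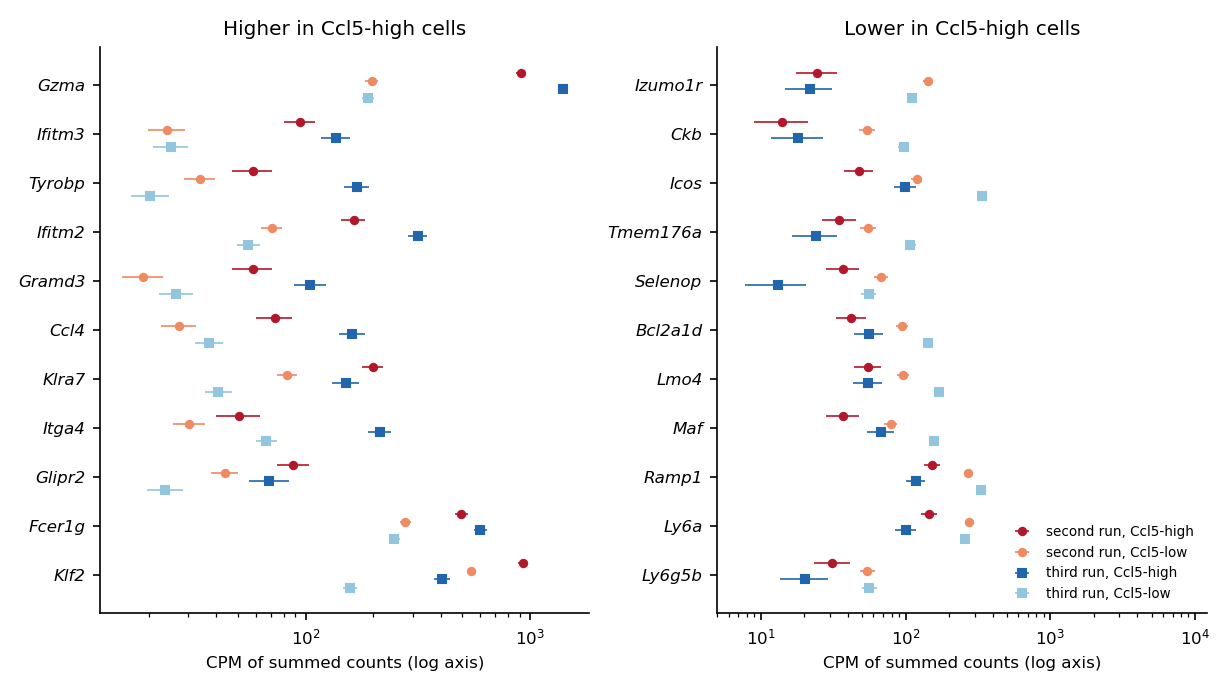
CPM of summed counts (x axis, log scale) with exact Poisson 95% intervals for 22 of the 24 called genes of at least 50 CPM in the higher group with the largest change, in Ccl5-high (dark) and Ccl5-low cells (light) of the second run (circles) and the third run (squares). In each row of the left panel the dark symbols lie to the right of the light symbol of the same run, and in the right panel to its left.

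Other genes with a large difference were of mixed roles. Ifitm3 and Ifitm2, membrane proteins that restrict virus entry, were at 94.3 against 24.1 CPM and 136 against 25.1 CPM (Ifitm3), and at 164 against 70.7 CPM and 316 against 55.6 CPM (Ifitm2). The log2 fold changes were 2.23 ± 0.134 for Ifitm3 (adjusted p = 1.34e-58) and 1.90 for Ifitm2, which DESeq2 did not call (0.149). Ifitm3 was in 12.9% and 23.1% of Ccl5-high cells, 4.57% and 7.25% of Ccl5-low cells and 7.56% and 11.1% of Ptcra+ Rag1+ cells. The long noncoding RNA Gm4208 (chr1:62821355-62832370, minus strand) had the largest fold of the genes called higher at 50 CPM or more, with 149 against 13.7 CPM and 83.3 against 4.58 CPM (log2 fold change 3.70 ± 0.158, adjusted p = 9.65e-115). It was found in 24.0% and 18.97% of Ccl5-high cells, 2.61% and 1.77% of Ccl5-low cells and 0.172% and 0.197% of Ptcra+ Rag1+ cells. Gramd3 (log2 fold change 1.85) and Glipr2 (1.25) were also higher in both runs. Among the lower genes, Ckb, a creatine kinase, was at 14.1 against 54.0 CPM and 18.1 against 96.8 CPM (log2 fold change -2.19 ± 0.184, adjusted p = 9.90e-30, DESeq2 7.06e-07). Without cells that had a type 17 marker, that of Ckb was -1.09, and that of Lmo4, a LIM domain protein that was also called by both tools, went from -1.21 to -0.44. Ramp1, a coreceptor for calcitonin family peptides, and Ly6g5b had log2 fold changes of -1.12 and -1.06 and were called by edgeR only. Of 17 interferon response genes outside the rule, Ly6c2 was higher and Ly6a and Ly6e were lower, with a median log2 fold change of -0.06, and DESeq2 called Ly6c2 and Ly6a. That list does not hold Ifitm1, Ifitm2, Ifitm3, Epsti1 or Samhd1, which interferons also induce and which were called higher. Log2 ratios of CPM + 1 were 1.04 and 3.21 for Ifitm1, 0.19 and 0.64 for Epsti1 and 0.54 and 0.44 for Samhd1. DESeq2 called only Ifitm1 and Ifitm3 of these. Aim2 and Ifi30, also induced by interferons and outside the list, were called lower by edgeR and not by DESeq2. Their ratios were -0.82 and -0.63 for Aim2 and -0.55 and -0.41 for Ifi30.

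Chemokines and cytokines were split. Ccl4, a related inflammatory chemokine, was at 72.9 against 27.2 CPM and 161 against 37.2 CPM (log2 fold change 1.84 ± 0.129, adjusted p = 4.03e-43). In third-run cells with 3 to 9 Ccl5 UMIs, Ccl4 was at 34.4 CPM, no higher than in Ccl5-low cells. It was at 214 CPM there with 10 to 29 Ccl5 UMIs and at 319 CPM with 30 or more. In the second run these classes were at 59.4, 86.8 and 69.1 CPM. Ifng, the type 1 effector cytokine, was at 137 against 103 CPM and 273 against 160.1 CPM (log2 fold change 0.63, adjusted p = 2.30e-09, DESeq2 0.0295). Ccl3 was higher as well, on 28 and 90 UMIs in Ccl5-high cells. Xcl1, a chemokine for cross-presenting dendritic cells, did not pass, at 369 against 396 CPM and 543 against 380.0 CPM. Il4, the type 2 cytokine, was lower, at 15.3 against 32.2 CPM and 0 against 8.17 CPM (adjusted p = 1.44e-04), as were Ltb and Tgfb1. Il17a, Il17f and Areg were at 0 in Ccl5-high cells of both runs. In all, 3 of 10 tested were higher and 3 lower, with a median log2 fold change of 0.00, and DESeq2 called Ccl4, Ifng and Ltb of the 6.

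Both retention and egress genes were among those that differed. Of 18 adhesion and retention genes, 7 were higher (Cd2, Cd48, Cd69, Itga1, Itga2, Itga4 and Itgb1) and 2 lower (Itgal and Rgs2), with a median of 0.15, and DESeq2 called Cd69, Itga4 and Itgb1 of the 9. Cd69, which holds cells in tissue by blocking the sphingosine phosphate receptor, was at 111 against 74.0 CPM and 238 against 116 CPM. Itga4 and Itgb1, the chains of the integrin VLA-4, had log2 fold changes of 1.39 and 0.85. That of Itga4 was 0.71 in the second run alone, 1.66 in the third alone and 0.98 without cells with Ncr1 or Eomes. That of Itgb1 was 0.58 in the second run alone and 1.03 in the third alone. Itgae, Itgb7 and Cxcr6 did not pass. Of 11 homing and egress genes, 3 were higher (Cx3cr1, Klf2 and S1pr1) and 2 lower (Ccr6 and Ccr7), with a median of 0.06, and DESeq2 called only Klf2 of the 5. Klf2, the factor that drives egress genes, was at 928 against 549 CPM and 405 against 158 CPM (log2 fold change 1.04 ± 0.0778, adjusted p = 2.50e-37, DESeq2 0.0161). It was found in 87.1% (83.6 to 90.1) and 79.5% (73.1 to 84.9) of Ccl5-high cells, 59.5% and 43.5% of Ccl5-low cells and 25.1% and 10.0% of Ptcra+ Rag1+ cells. S1pr1 was at 15.9 against 5.40 CPM and 33.3 against 11.6 CPM. No Ccr7 UMI was counted in Ccl5-high cells of either run.

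Some transcription factors of innate lineages were lower. Zbtb16, the factor PLZF that sets the innate-like T cell program, was at 6.74 against 23.7 CPM and 38.4 against 99.8 CPM (log2 fold change -1.46 ± 0.18, adjusted p = 9.97e-14, DESeq2 0.00798). Maf was at 36.8 against 78.8 CPM and 67.4 against 158 CPM (log2 fold change -1.16). Id2, which opposes E proteins in innate lymphocytes, was lower by a small step, at 1326 against 1802 CPM and 788 against 1042 CPM (log2 fold change -0.41, adjusted p = 5.05e-08). Rora and Tcf7 were also lower, and Eomes, Hopx, Klf6 and Stat4 were higher, of 29 factors tested with a median of -0.17. DESeq2 called Zbtb16, Maf and Id2 of these 9 and none of the other 6. Stat4 was higher in the third run only (109 against 63.9 CPM, with 22.7 against 26.4 CPM in the second). Runx3 was at 119 against 124 CPM and 217 against 214 CPM.

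Of 20 T cell receptor signaling and costimulation genes tested, 5 were lower and 1 was higher by edgeR, with a median of -0.11, and DESeq2 called 1 of the 6, Icos. Icos, a costimulatory receptor, was at 47.8 CPM in Ccl5-high and 119 CPM in Ccl5-low cells of the second run, and at 99.3 and 336 CPM in the third (log2 fold change -1.58 ± 0.111, adjusted p = 7.61e-43, DESeq2 3.12e-11). The others were Cd5, Cd6, Trbc1 and Zap70, which were lower, and Ptcra, which was higher (adjusted p = 0.0494). Izumo1r, which encodes folate receptor 4 (chr9:14885814-14903949, minus strand), was at 24.5 against 143 CPM and 21.7 against 111 CPM. Its log2 fold change was -2.44 ± 0.152 (adjusted p = 6.55e-54, DESeq2 2.27e-14), and it was -2.49 in the second run alone and -2.30 in the third alone. It was found in 6.33% and 8.72% of Ccl5-high cells, 28.0% and 37.0% of Ccl5-low cells and 1.89% and 2.95% of Ptcra+ Rag1+ cells. Pdcd1, which encodes PD-1, was lower by edgeR only (9.80 against 27.9 CPM and 8.69 against 29.5 CPM) and 4 more inhibitory receptors that were tested did not pass (median -0.27).

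For 3 of these genes the promoters are shown, since Gzma and Fcer1g were higher and Izumo1r was lower under both tools. Each runs from 250 bases before to 50 bases after the start that RefSeq gives the gene on build GRCm38.p6, 5′ to 3′ on the minus strand, and 3 of the 4 genes looked up had an entry (not Ccl5). Capitals mark the letters TGTGGT or their reverse complement, the core that RUNX factors bind, which each holds 1 time. Of all 32851 promoters of this length, 16.8% hold these letters on either strand. The T-box half-site letters TCACAC, searched the same way and not overlapping, are in none of the 3 and in 14.5% of all promoters. A match describes the sequence and does not show binding. The gene positions above are from GENCODE, which places the starts of Fcer1g and Izumo1r further upstream than RefSeq does.
Gzma, chr13:113100932-113101231: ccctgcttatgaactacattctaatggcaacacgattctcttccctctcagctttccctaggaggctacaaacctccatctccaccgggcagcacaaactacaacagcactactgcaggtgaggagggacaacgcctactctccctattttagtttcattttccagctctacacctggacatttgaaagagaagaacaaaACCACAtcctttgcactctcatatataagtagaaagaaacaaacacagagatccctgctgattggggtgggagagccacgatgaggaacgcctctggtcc
Fcer1g, chr1:171234300-171234599: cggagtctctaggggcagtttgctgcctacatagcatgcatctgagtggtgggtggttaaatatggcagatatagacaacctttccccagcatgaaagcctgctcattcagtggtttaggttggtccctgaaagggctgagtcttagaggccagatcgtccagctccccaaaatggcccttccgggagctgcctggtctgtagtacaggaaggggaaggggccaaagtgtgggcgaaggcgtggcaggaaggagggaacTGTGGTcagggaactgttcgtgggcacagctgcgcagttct
Izumo1r, chr9:14903718-14904017: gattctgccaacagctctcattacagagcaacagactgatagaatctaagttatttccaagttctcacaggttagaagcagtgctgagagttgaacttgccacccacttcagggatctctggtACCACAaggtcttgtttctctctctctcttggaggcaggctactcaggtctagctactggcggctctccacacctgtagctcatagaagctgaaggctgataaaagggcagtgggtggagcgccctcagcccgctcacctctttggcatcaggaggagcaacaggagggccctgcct

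Among the genes of cell state, S100, annexin and galectin genes were mostly higher and survival genes were split. Of 15 of the former, 9 were higher and 1 (S100a11) was lower, with a median log2 fold change of 0.48, and DESeq2 called 8 of the 9 and S100a11. S100a6, a calcium-binding protein of effector and memory cells, was at 1592 against 989 CPM and 1653 against 889 CPM (adjusted p = 3.31e-33, DESeq2 9.59e-22). Ahnak (188 against 114 CPM and 637 against 349 CPM) and Emp3 (372 against 222 CPM and 428 against 253 CPM) followed. Bcl2, which protects from death, was at 389 against 267 CPM and 397 against 203 CPM (log2 fold change 0.77), whereas its relatives Bcl2a1b and Bcl2a1d were lower, as was Fas, which DESeq2 did not call, of 9 tested with a median of 0.01. Bcl2a1b was at 108 against 199 CPM and 136 against 285 CPM, and Bcl2a1d had a log2 fold change of -1.25. Il18rap was higher and Il7r, Il17re and Il23r were lower, of 18 cytokine receptors with a median of -0.07, and DESeq2 called only Il17re of the 4. Over all genes, 2.16% were higher and 2.02% were lower. None of 19 immediate early and stress genes was called by edgeR or by DESeq2, with a median of 0.02, and Fos was at 676 against 631 CPM and 151 against 171 CPM. Egr3 and Gadd45b, of the same kinds but not in that list, were called lower by edgeR and not by DESeq2, with log2 ratios of CPM + 1 of -0.27 and -1.77 for Egr3 and of -0.49 and -0.99 for Gadd45b.

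Of 14 cell cycle genes, Birc5, Ccnb2, Stmn1 and Ube2c were called higher (median 0.33), and the direction held under neither of the settings below for Birc5 and under 1 of them for the other 3. Without cells that had a Trdc UMI, the log2 fold changes of Birc5, Ube2c, Stmn1 and Ccnb2 were -0.063, 0.055, 0.32 and 0.28, and with the gate applied to cells thinned to 2000 UMIs they were -0.81, -0.58, -0.43 and -1.37. DESeq2 called none of the 4. Another 11 mitosis or chromosome genes outside the list were called higher by edgeR and not by DESeq2 (Cdc20, Cdca3, Cenpa, Cenpf, Kpna2, Nusap1, Racgap1, Smc2, Smc4, Tacc3 and Tpx2), with log2 fold changes of 0.44 to 1.08. Of these, 8 were above 0 and 1 was called without Trdc cells, and 1 was above 0 and 0 were called with the gate on thinned cells. The histone genes H2afz, H2afx, Hist1h1a, Hist1h2ap and Hist1h3e were called higher as well, and H2afz by DESeq2 too (log2 ratios of CPM + 1 of 0.30 and 0.34). Mki67 was at 17.1 against 14.1 CPM and 97.1 against 77.1 CPM and did not pass.

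The levels of some of the genes by number of Ccl5 UMIs are given as a description, since the classes share a library and were cut by Ccl5. Gzma went from 454 CPM in cells with 3 to 9 Ccl5 UMIs to 1148 CPM with 10 to 29 and 1567 CPM with 30 or more in the second run, and from 1071 to 1064 and 2411 CPM in the third. Fcer1g went from 407 to 543 and 613 CPM, and from 488 to 518 and 905 CPM. Klf2 was at 845, 992 and 973 CPM and at 314, 478 and 476 CPM, and Klre1 at 257, 274 and 410.2 CPM and at 180.1, 266 and 206 CPM, so that neither was highest in the last class in the third run. Gzmb was at 597, 551 and 493 CPM in the second run and at 450, 450 and 360 CPM in the third. Icos went down, from 68.1 to 38.6 and 13.8 CPM and from 118 to 108 and 55.1 CPM. Izumo1r was at 30.4, 26.2 and 0 CPM in the second run and at 36.0, 14.1 and 5.80 CPM in the third. Cells with 1 or 2 Ccl5 UMIs, which lie outside the rule, had Gzma at 186 CPM in the second run, against 199 CPM in cells with 0, and at 266 CPM in the third, against 176 CPM. Their Klf2 level lay between that of cells with 0 and that of cells with 3 to 9 UMIs in both runs (523, 700 and 845 CPM, then 149, 205 and 314 CPM). Icos lay between in the third run (363, 187 and 118 CPM) but not in the second (129, 61.5 and 68.1 CPM).

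**Figure D4:**
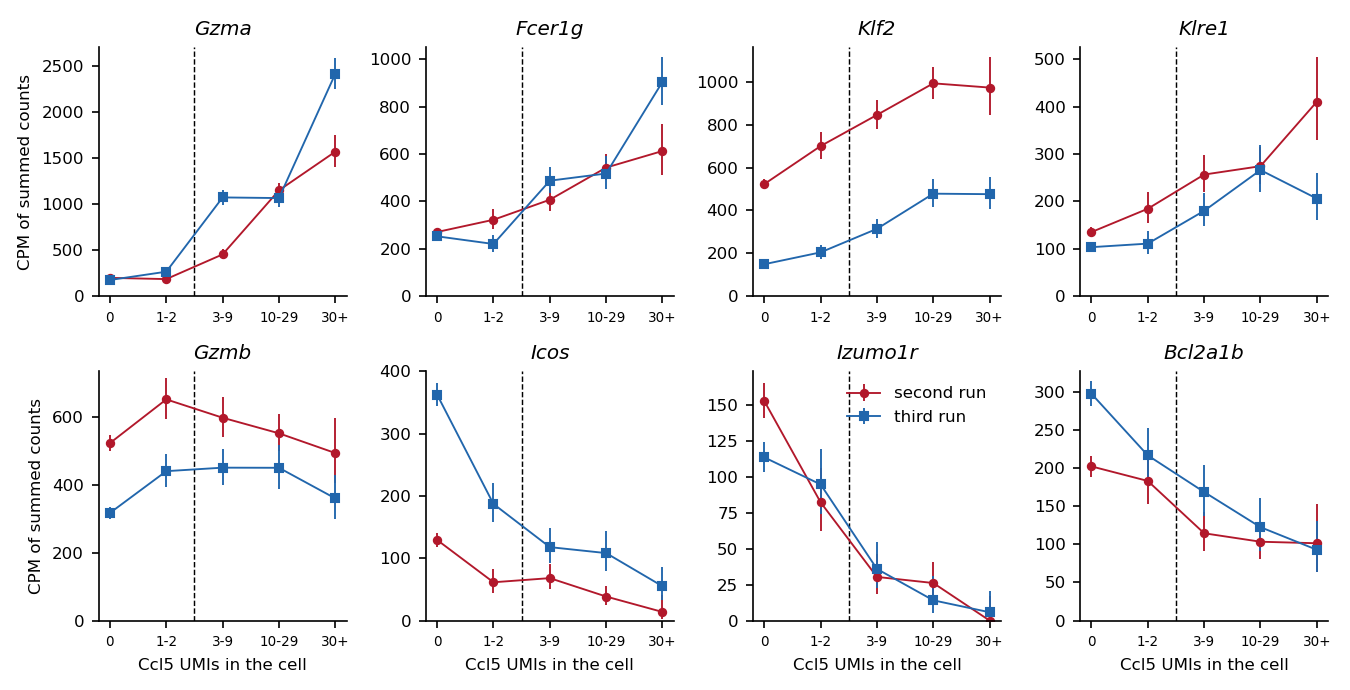
CPM of summed counts with exact Poisson 95% intervals (y axes, from 0) for 8 genes in base-gate cells by number of Ccl5 UMIs (x axis) in the second run (red circles) and the third run (blue squares), with a dashed line at the threshold. Gzma, Fcer1g, Klf2 and Klre1 are higher to the right of the line, Icos, Izumo1r and Bcl2a1b are lower there than at 0 UMIs, and Gzmb is highest with 1 to 2 UMIs in the second run and at 440 to 450 CPM from 1 to 29 UMIs in the third.

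The Ccl5-high cells were not uniform. Gzma and Gzmb UMIs were found together in 35.7% of them in the second run (31.3 to 40.4) and 44.1% in the third (37.0 to 51.4), against 12.7% and 18.5% of Ccl5-low cells and 2.58% and 1.97% of Ptcra+ Rag1+ cells. Neither was found in 21.04% (17.3 to 25.1) and 16.4% (11.5 to 22.4). Cells with a Gzma UMI had a median of 15 and 17 Ccl5 UMIs, and those without one had 9 in both runs. Of those with Gzma, 18.9% and 12.96% had one of the 750 highest doublet scores of their run, against 6.22% and 5.75% of those without, and Trdc was at 204.5 against 90.3 CPM and 100.4 against 111.5 CPM. The part of such cells in the difference was not tested. Those without Gzma had more Xcl1 (434 against 309 CPM and 669 against 454 CPM) and more Cxcr3 (186 against 116 CPM and 176 against 110.4 CPM). Cells without a Gzmb UMI had more Tyrobp, at 132 against 31.6 CPM and 445 against 81.3 CPM. They also had more Klra7, at 300 against 163 CPM and 346 against 88.0 CPM. The NK markers Ncr1 and Eomes were higher in them as well. Ncr1 was at 20.9 against 3.33 CPM and 95.5 against 8.61 CPM, and Eomes at 13.9 against 0 CPM and 107 against 8.61 CPM. Of cells without Gzmb, 5.88% and 7.41% had one of the 750 highest doublet scores, against 14.7% and 10.6% of those with it. Trdc was at 69.7 against 178 CPM and 116 against 101 CPM. The part of NK cells or doublets in this split was not tested.

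In the third run, Ccl5-high cells with and without an Itga1 UMI could be compared, with 129 and 66 cells of similar depth (medians of 5926 and 5828 UMIs). Those with Itga1 had more Gzma (1582 against 1039 CPM), Klf2 (468 against 276 CPM), Ifng (307 against 203 CPM) and S100a6 (1872 against 1207 CPM). Those without had more Itga4 (366 against 139 CPM), Tyrobp (309 against 101 CPM) and Ncr1 (55.1 against 17.3 CPM). Xcl1 (544 and 543 CPM) and Fcer1g (607 and 589 CPM) were alike within their counting intervals. In the second run, 27 cells had an Itga1 UMI, too few for most of these genes. Their Gzma level was lower, not higher (530 against 932 CPM), while S100a6 was higher as in the third run (1923 against 1573 CPM). Klf2 (1071 against 919.5 CPM) and Ifng (115.2 against 138.5 CPM) had overlapping counting intervals.

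Some Ccl5-high cells had a transcript of γδ thymocytes. A Trdc UMI was found in 14.3% (11.1 to 17.9) and 20.5% (15.1 to 26.9) of Ccl5-high cells, 12.8% and 13.8% of Ccl5-low cells and 71.1% and 66.0% of Ptcra+ Rag1+ cells. In the second run, the 63 Ccl5-high cells with Trdc were deep (median 6601 UMIs, against 2773 for the others), and 65.1% of them were among the 750 highest doublet scores of the run, against 3.17% of the others. In the third run, the 40 with Trdc had a median of 7150 UMIs, and 27.5% of them had such scores, against 5.16%. Of all Ccl5-high cells, 11.99% and 9.74% had such scores, close to 10.4% and 10.2% of Ccl5-low cells. With cells that had a Trdc UMI left out, 534 Ccl5-high cells stayed, and 180 genes were higher and 157 lower, of which 282 were among the 405. Gzma then had a log2 fold change of 2.96, Fcer1g of 1.13, Klf2 of 1.09, Icos of -1.53 and Izumo1r of -2.36.

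Markers of other cell types were counted beside these results. Of 8 NK cell or group 1 ILC markers tested, 7 were higher in Ccl5-high cells (median log2 fold change 2.17), 4 of them by DESeq2 too, and the list summed to 1524 against 543 CPM and 2436 against 530 CPM, with Gzma the most abundant. Of its defining genes, Ncr1 was at 7.96 CPM on 13 UMIs and 29.7 CPM on 41 UMIs in Ccl5-high cells and at 0 and 1.39 CPM in Ccl5-low cells, and Eomes was at 3.68 and 32.6 CPM against 1.46 and 0.398 CPM. A UMI of either was found in 14 of 442 (3.17%, 1.74 to 5.26) and 23 of 195 Ccl5-high cells (11.8%, 7.63 to 17.2), in 0.217% and 0.740% of Ccl5-low cells and in 0% and 0.328% of Ptcra+ Rag1+ cells. Without the cells with Ncr1 or Eomes, 152 genes were higher and 141 lower, of which 283 were among the 405. Of the 7, Gzma, Prf1, Fcer1g, Tyrobp, Klra8 and Ncr1 are also in the lists of granule genes or NK receptors above, and Eomes is in that of transcription factors.

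All 6 type 17 markers that were tested were lower (median log2 fold change -3.54), though DESeq2 called only Il17re of the 6, and the list summed to 95.6 against 144 CPM and 63.8 against 274 CPM, with Il17a at 0 and Tmem176b the most abundant. Tmem176b itself differed little in the second run, with log2 ratios of CPM + 1 of -0.085 there and -1.12 in the third run. A UMI of Il17a, Il17re, Il23r or Ccr6 was found in 2 of 442 (0.452%, 0.0549 to 1.62) and 1 of 195 Ccl5-high cells (0.513%, 0.0130 to 2.82), in 3.99% and 11.2% of Ccl5-low cells and in 3.09% and 3.87% of Ptcra+ Rag1+ cells. Without such cells in either group, 185 genes were higher and 166 lower, of which 274 were among the 405, and Icos (-1.21) and Izumo1r (-2.62) kept their sign while Tmem176a changed its own (0.12). Selenop (-0.41) was then no longer called.

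**Figure D5:**
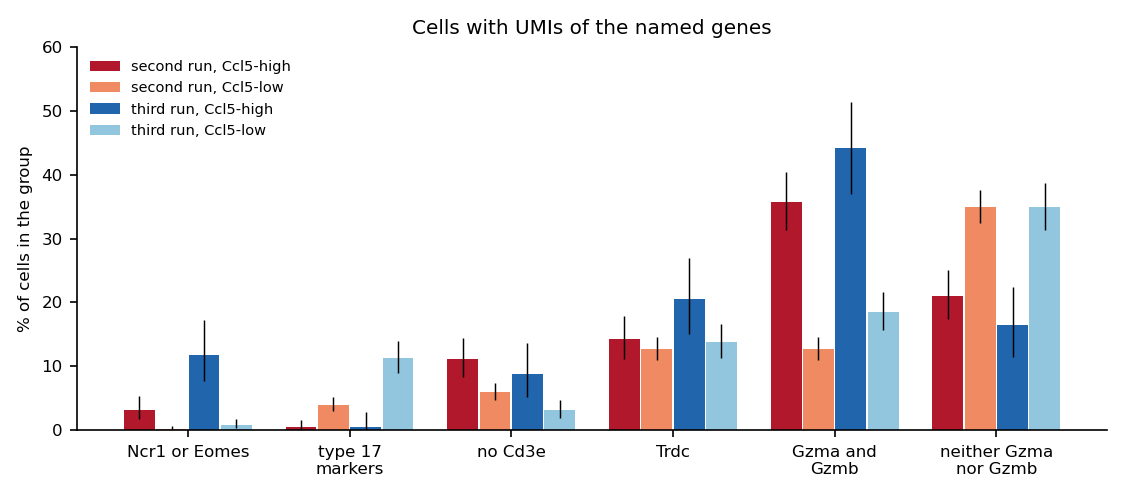
Share of cells (y axis, percent, with exact Clopper-Pearson 95% intervals) that had a UMI of the named genes, or lacked it, in Ccl5-high (dark) and Ccl5-low cells (light) of the second run (red) and the third run (blue). Ncr1 or Eomes and the pair of Gzma with Gzmb were more frequent in Ccl5-high cells of both runs, and type 17 markers less so.

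MHC class II and antibody genes outside the lists were among those called lower, while the class I genes H2-Q6 and H2-Q7 were called higher by edgeR only. Cd74, the invariant chain of MHC class II, was at 3.68 against 49.1 CPM in the second run and 11.6 against 132 CPM in the third (log2 fold change -3.56 ± 0.217, edgeR adjusted p = 2.01e-56, DESeq2 7.31e-14). The class II chains H2-Aa, H2-Ab1 and H2-Eb1 had log2 fold changes of -4.08, -2.61 and -3.69 and were called by both tools, on 2 to 7 UMIs in Ccl5-high cells of each run. Few cells carried them, since a Cd74 UMI was found in 0.452% and 8.21% of Ccl5-high and 1.30% and 6.36% of Ccl5-low cells, and 1 cell held 45.3% of its UMIs in Ccl5-low cells of the second run and 16.1% in the third (for H2-Aa, 69.2% in the second). With a threshold of 2 Ccl5 UMIs, the log2 fold changes of the 4 were -0.39 (Cd74), -0.51 (H2-Aa), -0.39 (H2-Ab1) and 0.036 (H2-Eb1). Igha and Jchain, of antibody-secreting cells, were called lower by edgeR only, and 99.1% and 98.2% of their UMIs in Ccl5-low cells of the third run were in 1 cell. The part of cells with such RNA in the other results was not tested.

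For the remaining lists few genes passed. Of 3 B cell markers tested, Igkc was lower by edgeR only (list median -0.28), but 95.9% of its 13025 UMIs in Ccl5-low cells of the third run were in 1 cell, and in the second run it was at 60.7 against 64.4 CPM. The B cell list summed to 268 against 272 CPM and 200.0 against 2808 CPM, with Pax5 and Ebf1 at 0 in Ccl5-high cells, and Cd79a reached 2 UMIs in 0 of 637 Ccl5-high cells. Of 7 DN2b or DN3 markers, Dntt and Ptcra were higher by edgeR only (median 0.47, summed level 659 against 509.8 CPM and 298 against 226 CPM). Of 6 γδ markers, Blk was lower (median -0.51, summed level 636 against 687 CPM and 288 against 342 CPM, Tcrg-C1 the most abundant). None of 5 DN progenitor markers passed by edgeR or DESeq2 (median 0.10, summed level 112 against 131 CPM and 103 against 87.4 CPM, Hhex the most abundant, Flt3 at 0), nor did any of 3 type 2 markers (median -0.24, summed level 138 against 156 CPM and 106 against 128 CPM, Gata3 the most abundant, with Il1rl1, Areg and Hs3st1 at 0). Of the myeloid list, 2 genes were tested and 0 were called (median 0.15), and it summed to 157 against 174 CPM and 134 against 162 CPM, nearly all of it Cst3, with Csf1r, Adgre1 and 4 more at 0. Of the plasmacytoid dendritic cell list, Ly6d was called higher by edgeR only, of 4 tested (median 0.06, summed level 535 against 453 CPM and 304 against 277 CPM), though it was at 125 against 126 CPM in the third run, and Siglech was at 0. The erythroid and the stromal or epithelial lists had 2 genes and 1 gene tested, with 0 called by edgeR (medians 0.52 and -0.19), and summed to at most 13.3 CPM in each of the 4 sums. Whether any of these cells has a part in the genes called was not tested beyond the counts without Ncr1, Eomes, type 17 or Trdc cells.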

How the data were processed

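Thymocytes were sorted and 1 10x library was made from 4 pooled thymi for each of 3 runs. The authors deposited raw UMI counts per gene and cell, made with Cell Ranger (4.0.0 in the third run's header) on build mm10, and filtered no cells in these files. The labels also name R 3.6.3 and Seurat 2.3, which were not used here. Genes were matched by Ensembl ID between runs (27734 shared). Counts were summed over the Ccl5-high and the Ccl5-low cells of each run and compared by edgeR 4.0.16 (R 4.3.3) with TMM, filterByExpr, the run as a block and its quasi-likelihood test, two-sided, with Benjamini-Hochberg adjustment and a threshold of 0.05, and by DESeq2 1.42.0 as an alternative. The sums held 1380233 to 5020400 UMIs, which sets the Poisson intervals of CPM values. Doublet scores came from Scrublet in scanpy 1.11.5, and the 750 highest per run were taken. Shares have exact Clopper-Pearson intervals at 95% (scipy 1.17.1). Promoters were from RefSeq (GRCm38.p6) and gene positions from GENCODE on mm10.

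The genes named were the gate genes, the 12 largest changes in each direction among genes called with the same direction in both runs and at least 50 CPM in the higher group, the called and most abundant members of the gene lists, and markers of other cell types. Cd4, Cd8a, Cd74, Egr3, Epsti1, Fos, Gadd45b, Gzmb, the class II genes, Ifitm1, Igha, Il17f, Itgae, Itgb7, Jchain, H2-Q6, H2-Q7, Mki67, Samhd1, the histone genes and the 11 mitosis or chromosome genes fell outside this rule and were named after their values were seen. Aim2 and Ifi30 were also named in this way. The members and lists were chosen with earlier results of these data known. Alternatives changed the limits on cells, the thresholds of the gate, depth, doublets, the tool, the scaling, the low-count filter and the block. The first run, with 1 Ccl5-high cell, was left out of the tests. Some members of the homing, transcription factor and type 17 lists are not reported here and were left out of the list counts.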

Additional observations from a re-analysis of the deposited data

Results flagged for a closer look

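The first run, total DN and TCRγδ+ cells, was outside the rule and held Ccl5 UMIs. Of its 5516 cells within the limits, 17 had 3 or more Ccl5 UMIs (0.308%, exact Clopper-Pearson 95% interval 0.180 to 0.493). Of the 1106 cells of the first run with Ptcra and Rag1 UMIs, which should lack Ccl5, 0.542% (0.199 to 1.18) reached the same number, with a median depth of 7583 UMIs, and 0.995% had 1 or more. Of the 17 cells, 6 were such cells, and the source of their Ccl5 UMIs was not tested. Of these 17 cells, 10 had no Trac UMI, 9 had fewer than 2 UMIs of Klrk1, Klrd1 and Klrb1c, and 12 had a Trdc UMI. The base gate held 4 cells in that run, and 1 of them was Ccl5-high, with 8 Ccl5 UMIs among 20460, which is too few to set beside the other runs. The first and the second run shared 72 cell barcodes, and 0 of them were Ccl5-high cells.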

How the results depend on the processing

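The number of Ccl5-high cells was 637. It was 717 with a threshold of 2 Ccl5 UMIs, 513 with 5, 702 without the interferon limit, 535 with 2 or more Trac UMIs, 534 with 0 Trdc UMIs, 387 with the gate on cells thinned to 2000 UMIs, and 565 without the highest doublet scores. Alternatives added after seeing the data gave 571 cells with Cd3e, 600 with 0 Ncr1 and 0 Eomes UMIs, and 634 with 0 type 17 markers. Their fits are among the alternatives counted above. The count of genes higher and lower was 43 and 23 with DESeq2, 0 and 0 without the run block, 97 and 50 with the gate on thinned cells and 63 and 30 with sums of thinned cells, which have fewer counts. Under the other settings both counts stayed within 1.5 times those of the fit described, among them 229 and 165 with DESeq2's size factors in edgeR and 160 and 220 without a low-count filter.

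Of the 71 called genes whose fold changes were followed, 32 were not called by DESeq2 and 71 were not called without the run block. With the gate on thinned cells 20 were no longer called (Il7r, Cd2 and Itgal among them) and 4 changed sign, and with sums of thinned cells 21 were no longer called. Under each of the other settings at most 9 lost their call. The log2 fold change of Birc5 was -0.063 with 0 Trdc UMIs and -0.81 with the gate on thinned cells. With the gate on thinned cells that of Ube2c was -0.58, that of Stmn1 was -0.43 and that of Igkc was 0.48, and without type 17 cells that of Tmem176a was 0.12. The causes were not tested. The fit pairs the Ccl5-high and the Ccl5-low sum of each run through the run block, and every call rests on this pairing. Depth limits genes of few UMIs, such as Itga2, Ccr7 and Il23r.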
